A study of Mus musculus with 6 samples.

Results

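The genes described here are 7 enzymes of the mevalonate pathway, *Hmgcs1*, *Mvk*, *Mvd*, *Idi1*, *Fdps*, *Fdft1* and *Sqle*, which run from the making of HMG-CoA in the cytosol to the epoxidation of squalene. They were found as every probe set whose platform annotation gives one of these symbols alone, which gave 11 of the 12422 probe sets tested, and 7 of the 8251 genes that such probe sets name. *Hmgcs1*, *Mvd*, *Idi1*, *Fdft1* and *Sqle* had 1 probe set each, *Mvk* had 2 and *Fdps* had 4. No probe set carried one of these symbols beside another symbol. Among the early enzymes of the pathway, *Acat2*, *Pmvk* and *Idi2* were not analysed here.

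The livers came from male Liver Insulin Receptor Knockout (LIRKO) mice, of genotype IR flox/flox with the albumin:CRE transgene, and from Flox littermates, which carried the same floxed insulin receptor alleles without Cre. The albumin promoter directs Cre to hepatocytes, and whether other cells of the liver keep the receptor was not tested. Mice of both groups were 2 to 3 months old, ate chow and were not fasted, and were kept on a mixed background of 129/sv, C57BL/6, FVB and DBA. Each group had 3 Affymetrix MG-U74A-v2 arrays, on which sets of short oligonucleotides read the transcripts. RNA of 2 to 3 mice was pooled for each array, so errors given here are between pools and not between single mice. Values are the deposited log2 signals after robust multichip averaging (RMA), where a difference of 1 is a 2-fold difference. The comparison asks what loss of the insulin receptor in hepatocytes does to the RNA of these enzymes in the liver.

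Acetyl-CoA units are joined to HMG-CoA, which is reduced to mevalonate, phosphorylated and decarboxylated to the isoprene unit isopentenyl diphosphate, and these units are then joined to farnesyl diphosphate and squalene. Farnesyl diphosphate is a branch point, since it also feeds protein prenylation, dolichol and ubiquinone, whereas squalene and its epoxide lead to sterols. The liver is a main site of cholesterol synthesis, and the transcription factor SREBP-2, released from the endoplasmic reticulum when its sterols run low, activates most genes of the pathway together with NF-Y and Sp1.

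Upstream sequences are shown for the genes that had an entry in the RefSeq promoter table of build GRCm38.p6, *Hmgcs1*, *Mvk*, *Mvd* and *Idi1*, because the difference between the groups varied widely among these genes and SREBP-2 is known to act on this region. *Fdps*, *Fdft1* and *Sqle* are named only. Each line gives the 250 bases before the annotated start, 5′ to 3′ on the strand of the gene, with capitals for the sterol regulatory element TCACNCCAC and for the NF-Y box CCAAT or its reverse complement ATTGG. The windows are chr13:119690101-119690350 on the plus strand for *Hmgcs1*, chr5:114444019-114444268 on the plus strand for *Mvk*, chr8:122443423-122443672 on the minus strand for *Mvd* and chr13:8885356-8885605 on the plus strand for *Idi1*.
Hmgcs1: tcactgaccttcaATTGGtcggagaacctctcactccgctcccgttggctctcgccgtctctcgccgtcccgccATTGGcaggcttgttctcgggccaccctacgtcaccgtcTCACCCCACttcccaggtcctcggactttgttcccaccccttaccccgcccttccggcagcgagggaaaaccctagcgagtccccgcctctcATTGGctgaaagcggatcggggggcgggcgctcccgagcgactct
Mvk: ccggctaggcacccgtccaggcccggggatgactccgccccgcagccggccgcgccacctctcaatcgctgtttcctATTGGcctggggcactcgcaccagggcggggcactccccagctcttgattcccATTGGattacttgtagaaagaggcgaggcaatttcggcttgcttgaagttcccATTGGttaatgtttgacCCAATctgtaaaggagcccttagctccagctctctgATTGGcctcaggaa
Mvd: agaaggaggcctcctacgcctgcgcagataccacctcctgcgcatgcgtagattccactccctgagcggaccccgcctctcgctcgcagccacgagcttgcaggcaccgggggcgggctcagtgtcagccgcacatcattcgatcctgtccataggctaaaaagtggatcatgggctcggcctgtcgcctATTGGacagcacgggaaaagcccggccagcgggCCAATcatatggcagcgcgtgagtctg
Idi1: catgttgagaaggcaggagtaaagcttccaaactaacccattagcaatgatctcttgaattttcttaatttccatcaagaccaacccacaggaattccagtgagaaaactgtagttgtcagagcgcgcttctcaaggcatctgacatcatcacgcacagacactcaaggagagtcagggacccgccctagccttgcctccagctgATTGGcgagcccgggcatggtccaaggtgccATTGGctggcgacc

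Both strands were searched, and none of the matches overlapped another. The sterol element in the form TCACNCCAC was found only in the *Hmgcs1* window among these 4, where TCACCCCAC lies 137 to 129 bases before the start. The form TCACNCCAC was held by 1.05% of all 32851 windows of this length. Other forms of the element were not searched, so their absence from the 4 windows is not shown. The NF-Y box occurred 3 times in *Hmgcs1*, 5 times in *Mvk*, and 2 times each in *Mvd* and *Idi1*. At least 2 such boxes were held by 10.1% of all windows, and at least 1 by 33.8%. The Sp1 box GGGCGG, not in capitals, occurred 2 times each in *Hmgcs1* and *Mvk* and 1 time each in *Mvd* and *Idi1*, and 32.7% of all windows hold it. The E-box CACGTG, held by 6.02% of all windows, was in none of the 4. These letters describe the windows, and no binding was measured.

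The arrays labelled LIRKO 2 and LIRKO 3 stood apart from the other 4. Over the 1243 probe sets brightest in Flox, the median differences of LIRKO 1, LIRKO 2 and LIRKO 3 from the Flox mean were -0.01, -1.09 and -0.89. The 14 probe sets for the Bio hybridization controls, which are added to each sample, differed by a median of -0.09, 1.14 and 1.10 on the same arrays. Most of the pathway probe sets are bright, so the differences of the 7 genes are given below for LIRKO 1 alone as well, beside the median difference of the 1242 probe sets nearest in Flox level, called the shift of probe sets of like level. The part of this shift in the results was not tested. The *Insr* probe set read 5.45, 5.22 and 5.38 in Flox and 5.37, 5.99 and 6.06 in LIRKO, with a difference of 0.46 (adjusted p = 0.245, limma), and the sources used here do not place its probes inside or outside the deleted region. None of 7 measured hepatocyte markers of 8 passed in limma. At an unadjusted p under 0.05, 2 of the 7 were lower in limma, against 13.5% of all probe sets, and none was in the methods' t-test. Their median level was 12.93, 12.83 and 12.76 on the Flox arrays and 13.25, 12.33 and 11.69 on the LIRKO arrays. No gene of the 7 other marker lists passed in limma. These lists, for macrophages, stellate cells, endothelium, cholangiocytes, lymphocytes, blood cells and adipocytes, had 7, 7, 6, 3, 7, 5 and 2 measured genes. At an unadjusted p under 0.05 in limma, 2 of these genes were lower and 1 was higher, against 13.5% and 7.43% of all probe sets. In the methods' t-test 1 was lower at that level. The median differences of these lists ran from -0.31 to 0.20. In whole liver RNA, fewer cells of a type and less RNA per cell cannot be told apart.

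All 7 genes read lower in LIRKO than in Flox liver, and the largest differences were those of *Fdps*, *Idi1*, *Hmgcs1* and *Sqle*. Each gene is represented here by its brightest probe set, the one with the highest mean over all arrays. The median difference over the 7 genes was -1.74 on the log2 scale, with a range from -3.57 to -0.42, against 0.01 over all probe sets. Every LIRKO array read below every Flox array for 7 of 7 genes and for 8 of 11 probe sets, and 14.9% of all probe sets behaved in this way. At an adjusted p under 0.05 in limma, only *Hmgcs1* among the 11 probe sets fell, and 0.0564% of all probe sets passed as lower. At an unadjusted p under 0.05, 8 of 11 probe sets were lower and 1 was higher, while 13.5% of all probe sets were lower and 7.43% were higher at that level. An exact permutation test of 3 arrays against 3 cannot give a two-sided p below 0.1.

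**Figure D1:**
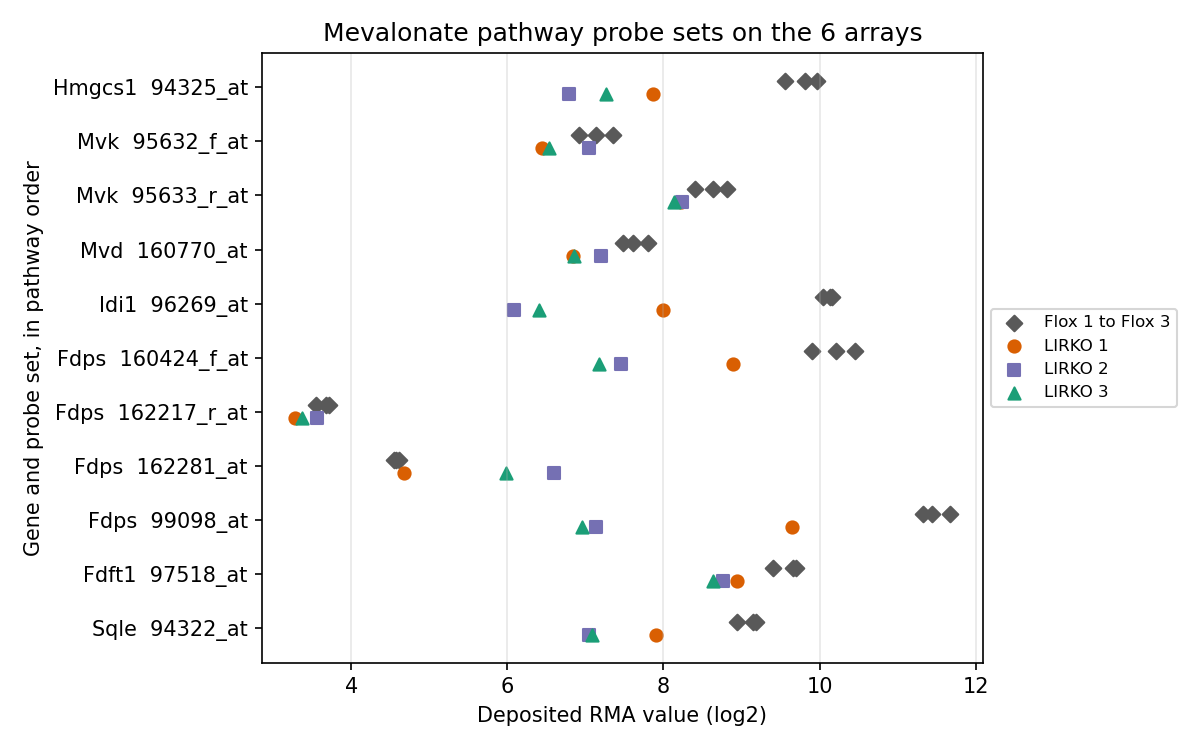
Deposited RMA values (log2, horizontal axis) of the 11 probe sets, in pathway order (vertical axis), with 1 point for each array. LIRKO 1 to LIRKO 3 lie left of all Flox arrays at 8 probe sets, and right of them at *Fdps* 162281_at.

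LIRKO 1, the array without the shift at high signal, showed the same direction for these genes. It read below every Flox array for 7 of 7 genes and 10 of 11 probe sets, as it did for 30.9% of all probe sets. It was at least 2-fold below the Flox mean for 4 of 7 genes and 5 of 11 probe sets, against 0.258% of all probe sets. The medians over the genes for LIRKO 1, LIRKO 2 and LIRKO 3 were -1.19, -2.04 and -2.0. Among all 12422 probe sets ordered from the lowest difference, 8 of 11 lay within the lowest 124 on LIRKO 1, and 5 of 11 did so by the mean of the LIRKO arrays. With LIRKO 1 as the only LIRKO array, and the assumption that a LIRKO pool varies as much as the Flox pools do, 5 of 11 probe sets were lower at an adjusted p under 0.05 in limma, against 0.282% of all probe sets. These were the probe sets of *Hmgcs1*, *Idi1*, *Sqle* and the 2 bright ones of *Fdps*.

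*Hmgcs1* encodes the cytosolic HMG-CoA synthase, which commits acetyl groups to the pathway, and it had the sterol element in the window shown above. Probe set 94325_at read 9.82, 9.56 and 9.97 in Flox and 7.86, 6.79 and 7.26 in LIRKO. The groups were separated by a gap of 1.71, with LIRKO 2 the lowest array. Flox averaged 9.78 ± 0.207 (SD, n = 3), LIRKO averaged 7.30 ± 0.534 (SD, n = 3), and the difference of -2.48 ± 0.27 (SE), with a 95% interval from -3.13 to -1.83, passed the test (adjusted p = 0.0403, limma). On the linear scale LIRKO stood at 17.9% of Flox, and LIRKO 1 alone at 26.3%. The shift of probe sets of like level was -0.01, -0.97 and -0.80 on LIRKO 1, LIRKO 2 and LIRKO 3, against differences of -1.93, -2.99 and -2.52 for *Hmgcs1*. The test was no longer passed without Flox 1, Flox 2, Flox 3, LIRKO 2 or LIRKO 3, where the adjusted p in limma was 0.266, 0.22, 0.295, 0.0828 and 0.319, and without LIRKO 1 it was 5.63e-06.

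*Mvk*, mevalonate kinase, performs the first phosphorylation of mevalonate. Its brighter probe set, 95633_r_at, read 8.81, 8.64 and 8.41 in Flox and 8.22, 8.24 and 8.13 in LIRKO. The groups did not overlap, but the gap was 0.17. The difference was -0.42 ± 0.14 (SE; adjusted p = 0.237, limma), or 74.7% of Flox. The differences of -0.38 and -0.49 on LIRKO 2 and LIRKO 3 lay close to the shift of like probe sets, -0.49 and -0.38, whereas LIRKO 1 differed by -0.40 at a shift of -0.02. The other probe set, 95632_f_at, read 7.35, 7.13 and 6.92 in Flox and 6.44, 7.04 and 6.53 in LIRKO, so that LIRKO 2 lay among the Flox arrays (difference -0.46, adjusted p = 0.24, limma). In the names of this array type, the letters f and r mark probe sets for which a design rule was relaxed, f for sets whose probes may be shared by related sequences.

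*Mvd* encodes mevalonate diphosphate decarboxylase, which yields isopentenyl diphosphate. Probe set 160770_at read 7.61, 7.80 and 7.48 in Flox and 6.84, 7.20 and 6.86 in LIRKO, with a gap of 0.28 between the groups. The difference was -0.67 ± 0.15 (SE), with a 95% interval from -1.03 to -0.30 (adjusted p = 0.237, limma). It was the only gene of the 7, by its brightest probe set, for which LIRKO 1 was the lowest array, at 57.6% of the Flox mean. The shift of probe sets of like level here lay between -0.15 and -0.01 on the LIRKO arrays.

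*Idi1*, isopentenyl diphosphate isomerase, makes the allylic partner with which farnesyl diphosphate synthesis starts. Probe set 96269_at read 10.13, 10.04 and 10.16 in Flox and 8.0, 6.09 and 6.41 in LIRKO. The Flox arrays lay within a narrow band and all LIRKO arrays at least 2.04 below it, with LIRKO 1 well above the other two. Flox averaged 10.11 ± 0.0636 (SD, n = 3), and LIRKO averaged 6.83 ± 1.03 (SD, n = 3). The difference was -3.28 ± 0.47 (SE), with a 95% interval from -4.39 to -2.18, and did not pass (adjusted p = 0.111, limma). LIRKO liver held 10.3% of the Flox signal, and LIRKO 1 held 23.2%, the lowest share of the 7 genes on that array. Like probe sets were shifted by -1.09 and -0.89 on LIRKO 2 and LIRKO 3, against -4.03 and -3.71 for *Idi1*.

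*Fdps*, farnesyl diphosphate synthase, makes the branch point metabolite of the pathway, and its probe sets disagreed. The brightest, 99098_at, read 11.67, 11.33 and 11.44 in Flox and 9.65, 7.14 and 6.95 in LIRKO. LIRKO 1 differed from the Flox mean by -1.83, and LIRKO 2 and LIRKO 3 by -4.34 and -4.53, where like probe sets were shifted by -0.01, -1.09 and -0.89. The mean difference of -3.57 ± 0.68 (SE), the largest of the 7 genes by their brightest probe sets, had a 95% interval from -5.17 to -1.96 and did not pass (adjusted p = 0.237, limma). The LIRKO signal was 8.44% of Flox, and 28.1% on LIRKO 1 alone. Probe set 160424_f_at gave 10.46, 9.90 and 10.21 in Flox and 8.89, 7.45 and 7.17 in LIRKO, again without overlap (difference -2.36, adjusted p = 0.237, limma). With the mean of all 4 probe sets in place of the brightest, the difference of *Fdps* was -1.25, smaller than those of *Idi1*, *Hmgcs1* and *Sqle*.

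The remaining 2 *Fdps* probe sets were dim. Probe set 162217_r_at, brighter in Flox than 6.32% of all probe sets, read 3.71, 3.68 and 3.55 in Flox and 3.28, 3.56 and 3.37 in LIRKO (difference -0.24, adjusted p = 0.274, limma). The groups overlapped there. Probe set 162281_at, brighter in Flox than 16.1% of all probe sets, read 4.57, 4.61 and 4.55 in Flox and 4.68, 6.60 and 5.98 in LIRKO, and was the only one of the 11 with every LIRKO array above every Flox array (difference 1.17, adjusted p = 0.237, limma). LIRKO 1, LIRKO 2 and LIRKO 3 differed from the Flox mean by 0.10, 2.02 and 1.40, and like probe sets were shifted by -0.02, 0.23 and 0.15. The annotation gives this probe set no accession, and which transcript it reads was not tested.

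**Figure D2:**
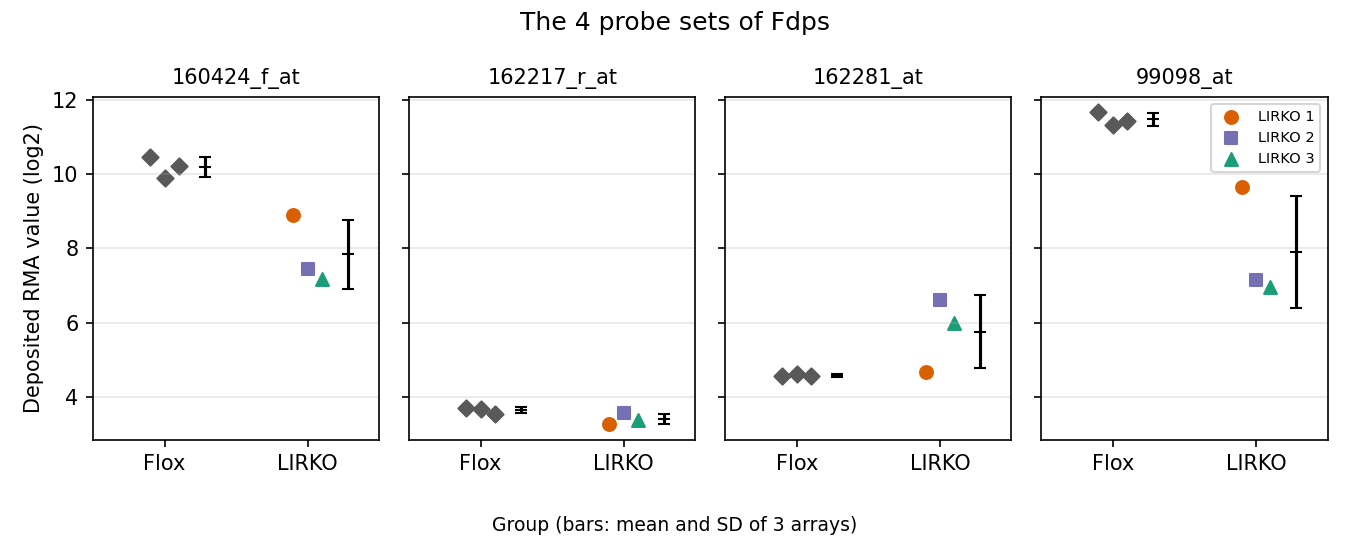
Deposited RMA values (log2, vertical axis) of the 4 *Fdps* probe sets by group, with 1 point for each array and bars for the mean and SD of 3 arrays. At 99098_at and 160424_f_at all LIRKO arrays lie below Flox, at 162217_r_at the groups overlap, and at 162281_at LIRKO 2 and LIRKO 3 lie above Flox while LIRKO 1 differs by 0.10.

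*Fdft1* encodes squalene synthase, which draws farnesyl diphosphate into sterols. Probe set 97518_at read 9.66, 9.41 and 9.70 in Flox and 8.94, 8.76 and 8.64 in LIRKO, with a gap of 0.47. The difference was -0.81 ± 0.14 (SE), with a 95% interval from -1.14 to -0.48 (adjusted p = 0.222, limma), or 57.2% of Flox. On LIRKO 2 and LIRKO 3 the differences of -0.82 and -0.95 lay close to the shift of like probe sets, -0.89 and -0.73. On LIRKO 1, where like probe sets were shifted by -0.01, *Fdft1* differed by -0.65.

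*Sqle*, squalene epoxidase, adds the first oxygen of the sterol route and is a slow step of it. Probe set 94322_at read 9.15, 8.94 and 9.18 in Flox and 7.90, 7.05 and 7.09 in LIRKO. All LIRKO arrays lay at least 1.04 below the lowest Flox array. The difference was -1.74 ± 0.24 (SE), with a 95% interval from -2.32 to -1.17, and did not pass (adjusted p = 0.106, limma). LIRKO signal was 29.9% of Flox, and LIRKO 1 was at 43.8%. Like probe sets were shifted by -0.69 and -0.55 on LIRKO 2 and LIRKO 3, against -2.04 and -2.0 for *Sqle*.

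Along the pathway, the differences did not follow the order of the steps. The 95% intervals of *Hmgcs1*, *Idi1*, *Fdps* and *Sqle* lay wholly below those of *Mvk*, *Mvd* and *Fdft1*, and differences between genes were not tested. On LIRKO 1 the order from the lowest was *Idi1*, *Hmgcs1*, *Fdps*, *Sqle*, *Mvd*, *Fdft1* and *Mvk*. On LIRKO 2 and LIRKO 3 it was *Fdps*, *Idi1*, *Hmgcs1*, *Sqle*, *Fdft1*, *Mvd* and *Mvk*. The same 4 genes thus led on every LIRKO array. The mean of LIRKO 2 and LIRKO 3 minus LIRKO 1 was -2.60 for *Fdps*, -1.76 for *Idi1* and 0.19 for *Mvd*.

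**Figure D3:**
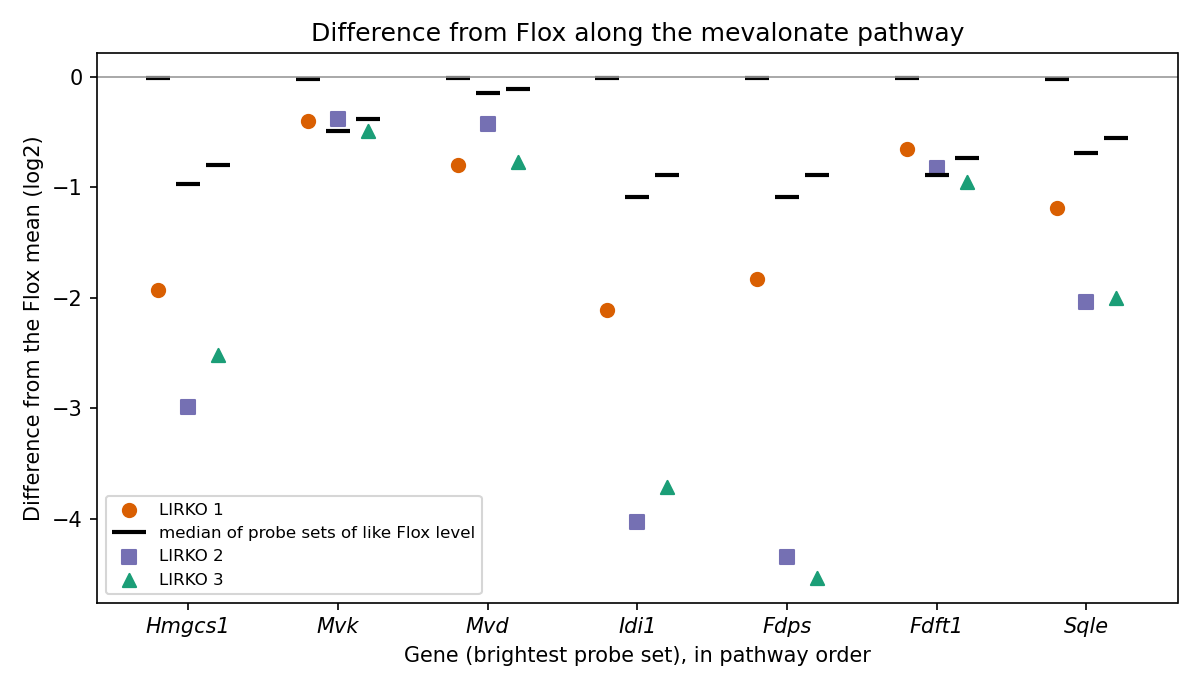
Difference of each LIRKO array from the Flox mean (log2, vertical axis) for the brightest probe set of the 7 genes in pathway order (horizontal axis), with bars for the median of probe sets of like Flox level. *Hmgcs1*, *Idi1*, *Fdps* and *Sqle* lie well below these bars on all arrays, and *Mvk* and *Fdft1* lie near them on LIRKO 2 and LIRKO 3.

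After cyclic loess between the arrays, which brings arrays to a common trend over signal, *Hmgcs1* (-2.21, adjusted p = 0.0111), *Idi1* (-3.03, adjusted p = 0.0337) and *Sqle* (-1.55, adjusted p = 0.0254) passed as lower in limma. Thus 3 of 11 probe sets passed, against 0.137% of all probe sets. The differences were -3.04 for *Fdps* 99098_at (adjusted p = 0.0857), -0.38 for *Fdft1* (adjusted p = 0.219), -0.62 for *Mvd* (adjusted p = 0.202) and -0.19 for *Mvk* 95633_r_at (adjusted p = 0.461) in limma. *Fdft1* and *Mvk* 95633_r_at had been at -0.81 and -0.42 before this step.

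The later enzymes, from lanosterol to cholesterol, gave the nearest comparison. Of 10 measured genes of 11, *Dhcr7*, the last reductase of the route, was the only one that passed as lower (-1.58 ± 0.16 (SE), adjusted p = 0.0384, limma). It read 7.89, 7.69 and 7.92 in Flox and 6.55, 6.18 and 6.03 in LIRKO. All 10 had differences below 0, with a median of -1.39, and -0.73 on LIRKO 1. The count of 1 gene past the threshold was 9 without LIRKO 1, where 26.7% of all probe sets passed as lower, and 0 without any single one of the other arrays. It was 3 after cyclic loess, against 0.137% of all probe sets, and 0 in the methods' t-test and after Bonferroni adjustment. At an unadjusted p under 0.05, 9 of the 10 were lower in limma, against 13.5% of all probe sets. In the methods' t-test 7 of the 10 were lower at that level, where 728 of all 12422 probe sets passed in either direction. The largest differences were those of *Msmo1* (-2.88, adjusted p = 0.237), *Nsdhl* (-2.55, adjusted p = 0.145) and *Cyp51* (-2.15, adjusted p = 0.0587) in limma, which take part in removing methyl groups of lanosterol. On LIRKO 1 these 3 genes differed by -1.57, -1.62 and -1.68. Probe sets of like level were shifted by -0.76 and -0.61 on LIRKO 2 and LIRKO 3 for *Msmo1*, by -1.06 and -0.86 for *Nsdhl* and by -0.25 and -0.16 for *Cyp51*. The other probe sets of *Nsdhl* differed by -2.89 and -0.34. *Lbr*, a reductase that is also a protein of the nuclear envelope, differed by -0.05 (adjusted p = 0.854, limma), and by 0.14 on LIRKO 1.

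Of the genes that use isoprenoids outside sterols, none of 8 measured of 18 passed in limma. At an unadjusted p under 0.05, 1 of 8 was lower in limma, near the 13.5% of all probe sets, and none was in the methods' t-test. Their median was -0.23, or -0.05 on LIRKO 1. *Ggps1*, which makes geranylgeranyl diphosphate from the product of *Fdps*, differed by 0.11 (adjusted p = 0.633, limma), and by -0.01 on LIRKO 1. The prenyl transferase subunits *Rabggta*, *Rabggtb*, *Fnta* and *Fntb* differed by -0.73, -0.55, -0.33 and -0.30, and on LIRKO 1 alone by -0.23, 0.08, 0.02 and -0.25. On LIRKO 2 and LIRKO 3, probe sets of like level were shifted by -0.58 and -0.45 for *Rabggta*, and by -0.33 and -0.25 for *Fnta*. For *Rabggtb* they were shifted by -0.0 and -0.02, and for *Fntb* by 0.17 and 0.1.

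Among genes of SREBP processing and its cofactors, none of 7 measured of 13 passed in limma, with 2 lower at an unadjusted p under 0.05, as were 13.5% of all probe sets, and none in the methods' t-test. The median was -0.02, and -0.09 on LIRKO 1. *Srebf1*, which encodes SREBP-1, read 10.85, 10.81 and 10.69 in Flox and 10.19, 8.90 and 9.34 in LIRKO. Its difference was -1.31 (adjusted p = 0.237, limma), and -0.59 on LIRKO 1, and like probe sets were shifted by -1.09 and -0.89 on LIRKO 2 and LIRKO 3. *Insig1*, which holds SREBP in the endoplasmic reticulum, differed by 0.07 (adjusted p = 0.738, limma), and by -0.09 on LIRKO 1, at a probe set brighter in Flox than only 15.2% of all. The protease gene *Mbtps1* differed by -0.67 (adjusted p = 0.237, limma), but by -0.09 on LIRKO 1, with like probe sets shifted by -0.46 and -0.36 on LIRKO 2 and LIRKO 3. The cofactor gene *Nfyc* read 7.68, 7.51 and 7.81 in Flox and 7.88, 7.84 and 7.94 in LIRKO. Its difference was 0.22 (adjusted p = 0.31, limma), and 0.21 on LIRKO 1, with like probe sets shifted by -0.17 and -0.12 on LIRKO 2 and LIRKO 3. The other probe set of *Nfyc* differed by -0.33, and by -0.07 on LIRKO 1. *Srebf2* and *Scap* were not analysed here.

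Of 3 measured genes of 8 among other targets of SREBP-2, none passed in limma, with 2 lower at an unadjusted p under 0.05, against 13.5% of all probe sets, and 1 in the methods' t-test. Their median was -0.94, and -0.35 on LIRKO 1. *Tmem97* differed by -1.50 (-0.81 on LIRKO 1), *Fads1* by -0.94 (-0.35 on LIRKO 1) and *Npc1* by -0.42 (0.46 on LIRKO 1). Like probe sets were shifted on LIRKO 2 and LIRKO 3 by -1.07 and -0.87 for *Tmem97*, -1.09 and -0.89 for *Fads1*, and -0.81 and -0.65 for *Npc1*. After cyclic loess *Tmem97* passed as lower in limma (-1.05, adjusted p = 0.0407). In the list of sterol excess and storage, none of 3 measured of 9 passed, with 1 lower and 1 higher at an unadjusted p under 0.05 in limma, against 13.5% and 7.43% of all probe sets, and none in the methods' t-test. By the brightest probe set of each gene, the groups overlapped for all 3. The cholesterol exporter *Abcg1* differed by 0.52, and by 0.18 on LIRKO 1, with like probe sets shifted by -0.28 and -0.21 on LIRKO 2 and LIRKO 3. *Nr1h3*, the sterol sensor LXR alpha, differed by -0.62, but by -0.07 on LIRKO 1, with like probe sets shifted by -0.56 and -0.44 on LIRKO 2 and LIRKO 3. The exporter *Abca1* differed by 0.04 at the probe set with the higher mean over all arrays and by -0.85 at the other, or by 0.22 and -0.05 on LIRKO 1. *Oxct1*, the only measured gene of 5 in the list for ketone body metabolism, differed by -0.12 (adjusted p = 0.545, limma), and by -0.08 on LIRKO 1.

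**Figure D4:**
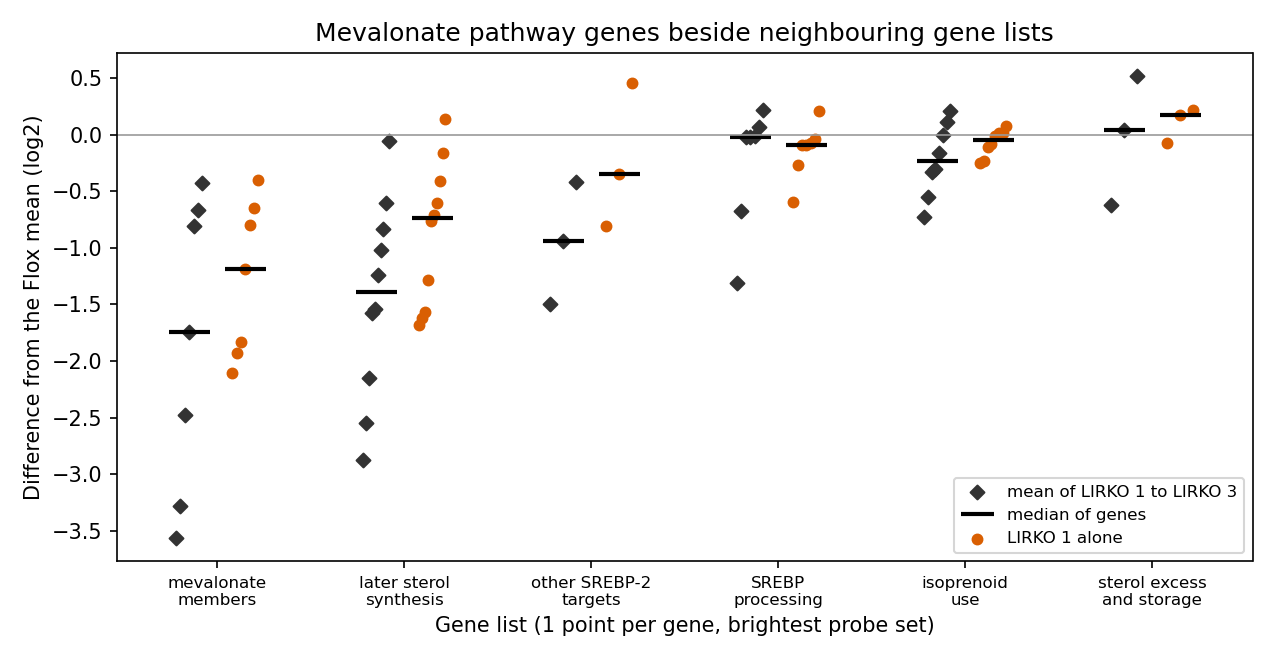
Difference from the Flox mean (log2, vertical axis) for each gene of 6 lists (horizontal axis), with diamonds for the mean of LIRKO 1 to LIRKO 3, circles for LIRKO 1 alone and bars for the median of genes. The medians are -1.74 for the mevalonate genes and -1.39 for later sterol synthesis, -0.94 for the other SREBP-2 targets, and lie between -0.23 and 0.04 for SREBP processing, isoprenoid use and sterol excess.

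The brightest probe sets of the pathway genes had similar profiles over the 6 arrays. With the mean profile of the 7 genes, to which each contributes, Pearson's r was 0.999 for *Sqle*, 0.997 for *Idi1*, 0.989 for *Hmgcs1*, 0.988 for *Fdps* 99098_at, 0.975 for *Fdft1*, 0.852 for *Mvk* 95633_r_at and 0.809 for *Mvd*. Of the other probe sets, r was 0.988 for *Fdps* 160424_f_at, 0.632 for *Fdps* 162217_r_at, 0.581 for *Mvk* 95632_f_at and -0.885 for *Fdps* 162281_at. The 6 points share the 2 groups and the shift of LIRKO 2 and LIRKO 3, so these values are descriptions. The probe sets of other genes nearest to this profile were those of *Fem1a* (r = 0.995), *Sec22b* (r = 0.9943), *Nsdhl* (r = 0.9941), *Casp9* (r = 0.9935) and *Zap70* (r = 0.9932). Of these, only *Nsdhl* belongs to sterol synthesis, and the differences of the other 4 ran from -0.85 to -0.57.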

How the data were processed

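Liver RNA of 3 Flox and 3 LIRKO pools was hybridized to MG-U74A-v2 arrays. The authors corrected, normalized and summarized the scans by RMA, using the Bioconductor package affy, and deposited log2 values, 1 for each probe set and array. Versions, and whether all 6 arrays were normalized together, are not given in the sources used here. The values were used as deposited. After 66 control probe sets were left out, 12422 were fitted with limma 3.58.1 (lmFit, eBayes) in R 4.3.3, with Benjamini-Hochberg adjustment over all of them and a threshold of 0.05, after the methods of the study, which also name an unequal variance test, called the methods' t-test here and run only as an alternative. The fit was tested on simulated data. Symbols came from the platform annotation (1 for 10833 probe sets, several for 396, none for 1193), and 10817 of the 10833 were found by Entrez ID in the RefSeq gene table.

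The members and lists were chosen with earlier results of these data known, and the promoter motifs with the sequences in view. Named genes are all members, list genes past the threshold or, failing these, up to 4 with the largest difference, regulators of known role, and the 5 probe sets most like the members' mean profile. Also named, outside this rule, were *Msmo1*, *Cyp51*, *Lbr* and *Ggps1*. In later sterol synthesis, some genes with larger differences than *Lbr*, such as *Ebp* (-1.54), were not named. Arrays give no counts, and their number limits the precision. The sources do not say how far the pools are independent. The p-values of limma weigh the difference between the groups against the spread between these arrays, with a variance that borrows from all probe sets. Alternatives were other normalizations, a filter on dim probe sets (lowest 25% by mean), other variance models, weights for arrays, a block for the replicate number, Bonferroni adjustment, the methods' t-test, averages over all probe sets of each gene, leaving out each array, and LIRKO 1 alone. Python 3.11.15 with pandas 2.3.3, numpy 2.4.6 and matplotlib 3.10.9 made the tables and figures.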

Additional observations from a re-analysis of the deposited data

How the results depend on the processing

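No difference of a member probe set changed sign under any alternative run. The count of member probe sets with LIRKO below Flox on every array, 8, ranged from 7 to 10. It was 10 only with fewer arrays, where such separation is easier to reach: without Flox 3, without LIRKO 2 and with LIRKO 1 as the only LIRKO array. Of all probe sets, 14.9% were separated in this way on all arrays and 30.9% with LIRKO 1 alone. The share was not counted for the other alternatives. In the counts of passing probe sets that follow, all probe sets are counted in either direction, and members only where lower in LIRKO. Probe sets past the threshold in limma numbered 16 in all and 1 among the members. They were 40 and 3 after cyclic loess, 8694 and 10 with array weights, whose fit did not converge, 2 and 0 after Bonferroni adjustment, and 90 and 5 with LIRKO 1 as the only LIRKO array. In the methods' t-test they were 0 and 0, where 728 probe sets and, as lower, 6 members had an unadjusted p under 0.05. With a robust variance in limma 0 members passed, *Hmgcs1* having an adjusted p of 0.0503. In that fit 8 of 11 were lower at an unadjusted p under 0.05, as in the main fit, where 13.5% of all probe sets were lower. The share over all probe sets with a robust variance was not counted. Leaving out 1 array gave 2 to 6095 probe sets and 0 to 8 lower members, with both highest values without LIRKO 1 and 0 members without each of the other arrays. *Fdps* 162281_at passed as higher in limma without LIRKO 1 (1.71, adjusted p = 5.02e-05) and with array weights (1.41, adjusted p = 1.62e-06). The adjusted p of *Hmgcs1* ranged from 2.12e-07 to 0.564 and its difference from -2.76 to -1.93. The median over the genes, -1.74, was -1.19 on LIRKO 1 alone and -1.25 with the mean of all probe sets of a gene, which is then the value of *Fdps*. Arrays of the same number correlated in their deviations from the group means at 0.321, 0.399 and 0.092, and arrays of different numbers at -0.369 to 0.166. These values do not settle whether the numbers mark pairs, and a block for them was run only as an alternative. In a fit with a replicate block, 11 probe sets and 1 member, *Hmgcs1* (adjusted p = 0.0491, limma), passed. The causes of these changes were not tested. The precision is limited by 3 pools a group.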
